A study of Homo sapiens with 6 samples.

Results

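Aminoacyl-tRNA synthetases attach each amino acid to its transfer RNA (tRNA), and their genes were examined here in 12Z cells, an established and immortalized epithelial cell line from endometriosis. The set held 40 genes given by symbol: 20 cytosolic enzymes, 16 mitochondrial enzymes, 3 scaffold genes of the complex that holds several cytosolic enzymes together, and XPOT, the nuclear exporter of tRNA. They were 40 of 60660 genes counted by RNA-sequencing, and 38 of them were among the 15155 genes that passed the filter on low counts. Control cells had been transfected with a non-targeting siRNA and knockdown cells with siRNA LINC01133a at 10 nM, directed at the long noncoding RNA LINC01133. RNA was taken 72 h later, from 3 biological replicates per group. The untreated state was not analysed here, the silencing was transient, and a single siRNA against LINC01133 was sequenced, so effects of that oligo outside its target and effects of LINC01133 cannot be told apart.

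Cytosolic and mitochondrial translation use separate sets of these enzymes, and nuclear genes encode both. For most amino acids a gene whose symbol ends in 1 makes the cytosolic enzyme and another, ending in 2, makes the mitochondrial one, while GARS1 and KARS1 serve both compartments from 1 gene. Many cytosolic synthetase genes are known targets of the amino acid response, in which uncharged tRNA activates the kinase GCN2 and the transcription factor ATF4 is translated more.

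The libraries held 27742562 to 37551194 counts on genes. Values are CPM, counts scaled to a common library size, after TMM normalization, and log2 fold changes are for knockdown against control fitted with edgeR (quasi-likelihood test), and p-values were adjusted over all 15155 genes by the Benjamini-Hochberg method. The cutoffs of the study were a fold change over 1.5 and an adjusted p under 0.05. LINC01133 had 25.1, 25.3 and 25.9 CPM in control and 4.01, 4.05 and 4.28 CPM in knockdown libraries (log2 fold change -2.63, edgeR adjusted p = 3.5e-11). Of 8 epithelial markers all 8 passed the filter, with the keratins KRT8, KRT18 and KRT19 high but EPCAM and CLDN4 near 0 at 0.42 and 0.46 CPM in control. Their summed level was 6200 to 6540 CPM in control and 3969 to 4151 CPM in knockdown libraries. KRT7, KRT8, KRT19 and CDH1 were lower past both cutoffs, with log2 fold changes of -0.59, -0.63, -0.88 and -2.02. The 9 stromal and mesenchymal markers, VIM and COL1A1 among them, summed to 5098 to 5681 CPM and 4468 to 4710 CPM. Of these 9, PDGFRA was lower (log2 fold change -1.52) and MME higher (0.82) past both cutoffs. Of 8 leukocyte and endothelial markers 4 passed the filter, and apart from CD14 these were below 1 CPM in control. CD14 went from 52.7 ± 3.15 to 26.7 ± 1.0 CPM (SD, n = 3), also past both cutoffs, and the sum of this list was 51.1 to 57.6 CPM in control and 27.4 to 29.5 CPM in knockdown libraries. All 3 marker sums moved with the knockdown, to 63.8% of control for the epithelial, 86.0% for the stromal and 52.5% for the leukocyte and endothelial list, and their part in the results on the synthetase genes was not tested. In bulk libraries, fewer cells that express a gene and less RNA of it per cell cannot be told apart.

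XPOT and the mitochondrial tyrosyl-tRNA synthetase gene YARS2 were lower and the mitochondrial cysteinyl-tRNA synthetase gene CARS2 was higher in knockdown cells, and these 3 of the 38 genes passed both cutoffs. Over all genes tested the share past both cutoffs was 11.7%, with 5.30% higher and 6.43% lower. Without the fold change cutoff, 13 of the 38 had an adjusted p under 0.05 and were higher, beside 23.3% of all genes tested, and 6 were lower, beside 25.0%. The other 19 did not pass. The groups did not overlap for 13 higher and 8 lower members, and for 57.3% of all genes tested in either direction. The median log2 fold change was 0.031 over the 38 genes and 0.0032 over all genes tested.

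**Figure D1:**
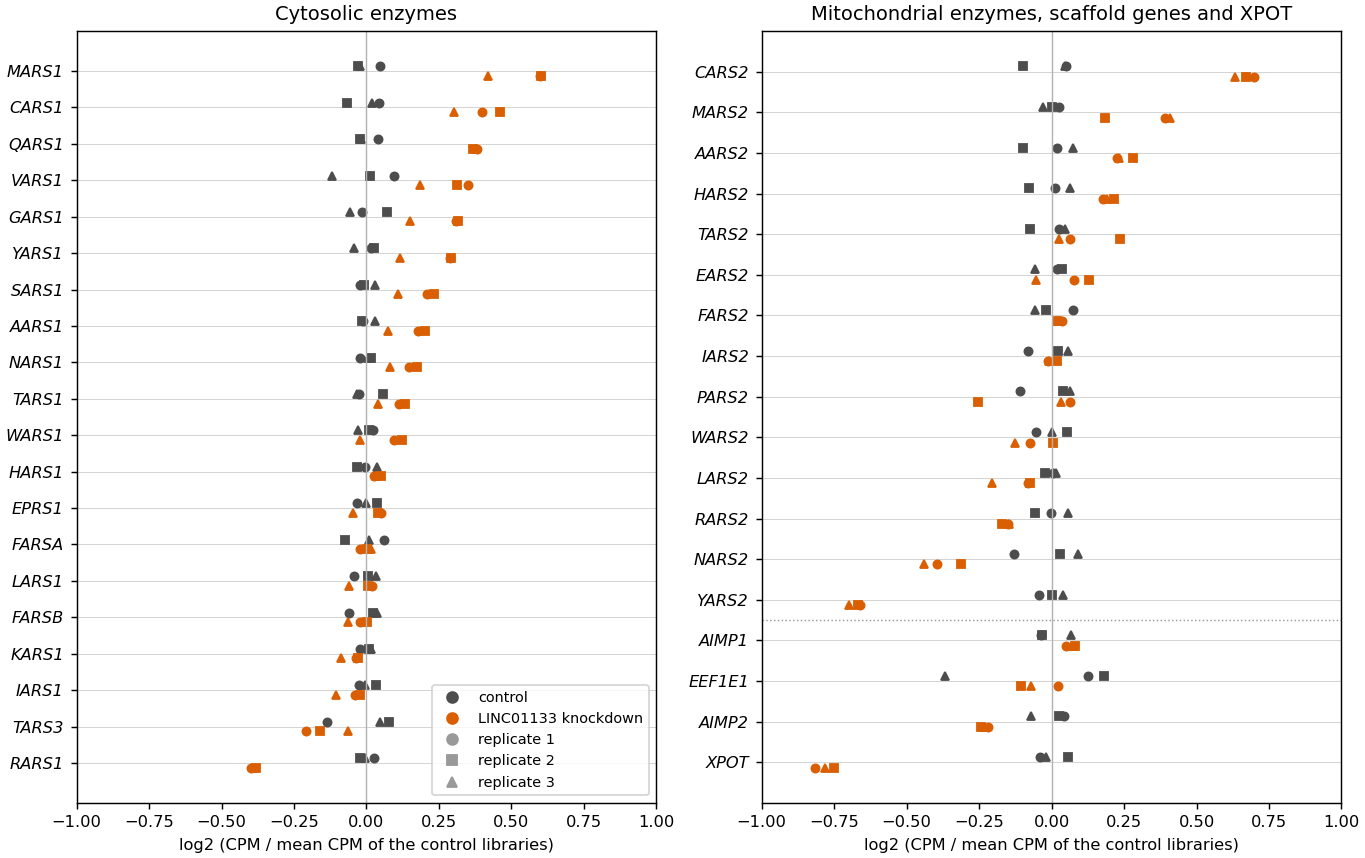
Log2 of the CPM in each library over the mean CPM of the 3 control libraries for the 38 genes tested, with cytosolic enzymes on the left and mitochondrial enzymes, scaffold genes and XPOT (below the dotted line) on the right. Grey symbols are control and orange symbols knockdown libraries, and the shape gives the replicate. MARS1, at 187, 188 and 165 CPM in knockdown libraries, stands highest of the cytosolic enzymes, and XPOT, at 149, 156 and 152 CPM, stands lowest of all.

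Mitochondrial enzymes were at lower levels than cytosolic ones in control cells. Per kilobase of canonical transcript (RPKM, the CPM divided by that length), the 20 cytosolic enzymes had a median level of 65.8 in control cells and the 14 mitochondrial enzymes tested one of 9.63. The highest levels were those of NARS1 (asparaginyl), 119 ± 1.7 RPKM (SD, n = 3), KARS1 (lysyl), 114 ± 1.6 RPKM, and IARS1 (isoleucyl), 114 ± 2.4 RPKM, of which KARS1 and IARS1 differed by less than their spread. IARS2, at 38.7 ± 1.9 RPKM, led the mitochondrial enzymes. The lowest levels were those of PARS2 (mitochondrial prolyl) at 1.35 ± 0.086 RPKM, TARS3, a second cytosolic threonyl-tRNA synthetase gene, at 1.78 ± 0.14 RPKM, and MARS2 (mitochondrial methionyl) at 2.83 ± 0.054 RPKM. Apart from TARS3, no cytosolic enzyme was below 10.3 RPKM, while 8 of 14 mitochondrial enzymes were. The mitochondrial enzymes held 12.2% of the summed CPM of both sets in control and 11.8% in knockdown cells.

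**Figure D2:**
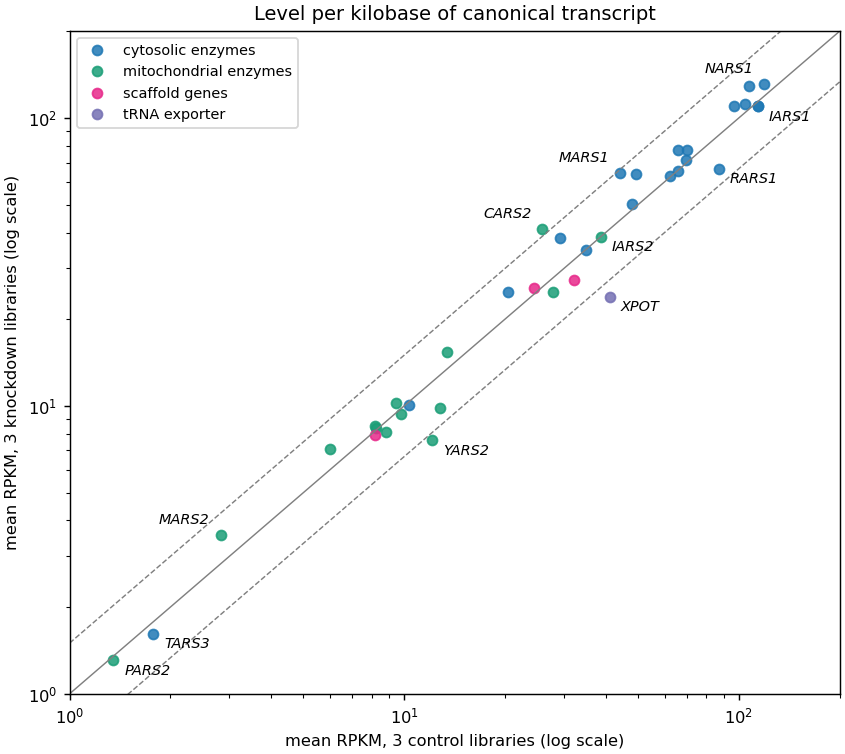
Mean RPKM in the 3 knockdown libraries against mean RPKM in the 3 control libraries, both on log scales, for the 38 genes tested. The solid line marks equal levels and the dashed lines a fold change of 1.5. Most mitochondrial enzymes lie below the cytosolic ones along the diagonal, and CARS2, YARS2 and XPOT lie outside the dashed lines.

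Promoters were read for the word of the amino acid response element, the site bound by ATF4 with C/EBP proteins, because its genes include several synthetases. Of the 40 genes, 34 were in RefSeq's promoter table (GRCh38.p14), whose entries run from 250 bases before to 50 bases after the start of the gene. AARS2, LARS1, TARS3, VARS1, VARS2 and YARS1 were not. The core TGATGNAA, on either strand, was found in 7 of the 34, which were 6 cytosolic enzymes and YARS2, beside 1.63% of the 10910 promoters of tested genes and 3.67% of all 27305 promoters. In the 6 cytosolic genes the word was TGATGCAA or its reverse complement TTGCATCA, which 0.477% of the promoters of tested genes held. The 60 bases around each match are shown on the strand of the gene, with the word in capitals, so that the shared word and its differing surroundings can be seen.
MARS1, chr12:57488038-57488097 (+): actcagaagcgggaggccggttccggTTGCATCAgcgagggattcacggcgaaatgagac
CARS1, chr11:3057392-3057451 (-): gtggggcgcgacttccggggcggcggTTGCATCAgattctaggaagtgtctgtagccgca
TARS1, chr5:33440941-33441000 (+): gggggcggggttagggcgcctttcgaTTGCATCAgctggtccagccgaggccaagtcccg
IARS1, chr9:92293677-92293736 (-): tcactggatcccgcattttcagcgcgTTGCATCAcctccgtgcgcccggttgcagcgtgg
AARS1, chr16:70289660-70289719 (-): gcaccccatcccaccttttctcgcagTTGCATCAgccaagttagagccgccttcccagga
NARS1, chr18:57621789-57621848 (-): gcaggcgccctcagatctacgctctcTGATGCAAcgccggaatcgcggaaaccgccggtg
YARS2, chr12:32756061-32756120 (-): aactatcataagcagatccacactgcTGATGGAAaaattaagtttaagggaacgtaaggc

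The word lay close to the RefSeq start in 5 of the cytosolic genes, beginning 4 bases before it in MARS1, 2 before in CARS1 and 13 before in IARS1, and 2 and 14 bases after it in TARS1 and NARS1. In AARS1 it began 187 bases before the start and in YARS2 197 bases before. These distances hold for the RefSeq starts alone. In GENCODE v44, AARS1 starts upstream of its word, at chr16:70289707. For several genes the most upstream GENCODE v44 start lies outside the entry read, as for NARS1, MARS1 and CARS2. CARS2 starts there at chr13:110713603, and its entry covers chr13:110706466-110706765. Which start these cells use was not tested. Raised genes were found both with and without the word. Of the 6 cytosolic genes with it, 4 were higher (MARS1, CARS1, AARS1, NARS1) and none lower, with log2 fold changes from -0.056 to 0.54 and a median of 0.14. Of the 10 cytosolic genes whose promoter entries lacked it, 3 were higher and 1 lower, with a median of 0.026. YARS2, the mitochondrial enzyme with a form of the word, was the lowest of its group. Among the 52 tested genes of any kind with TTGCATCA on either strand, 10 were higher and 20 lower, with a median of -0.032. Over all genes tested, 23.3% were higher and 25.0% lower.

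Other promoter words were searched on both strands, and no match of them overlapped the response element word. CCGGAAG, the word of ETS factors, was in 16 of the 34 promoters, beside 19.2% of those of tested genes, and CCAAT was in 18, beside 36.6%. The NRF1 word GCATGCGC, a site of the factor that drives many nuclear genes for mitochondria, was in MARS2 and YARS2, beside 5.54%. The E-box CACGTG was in 4, beside 9.97%.

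**Figure D3:**
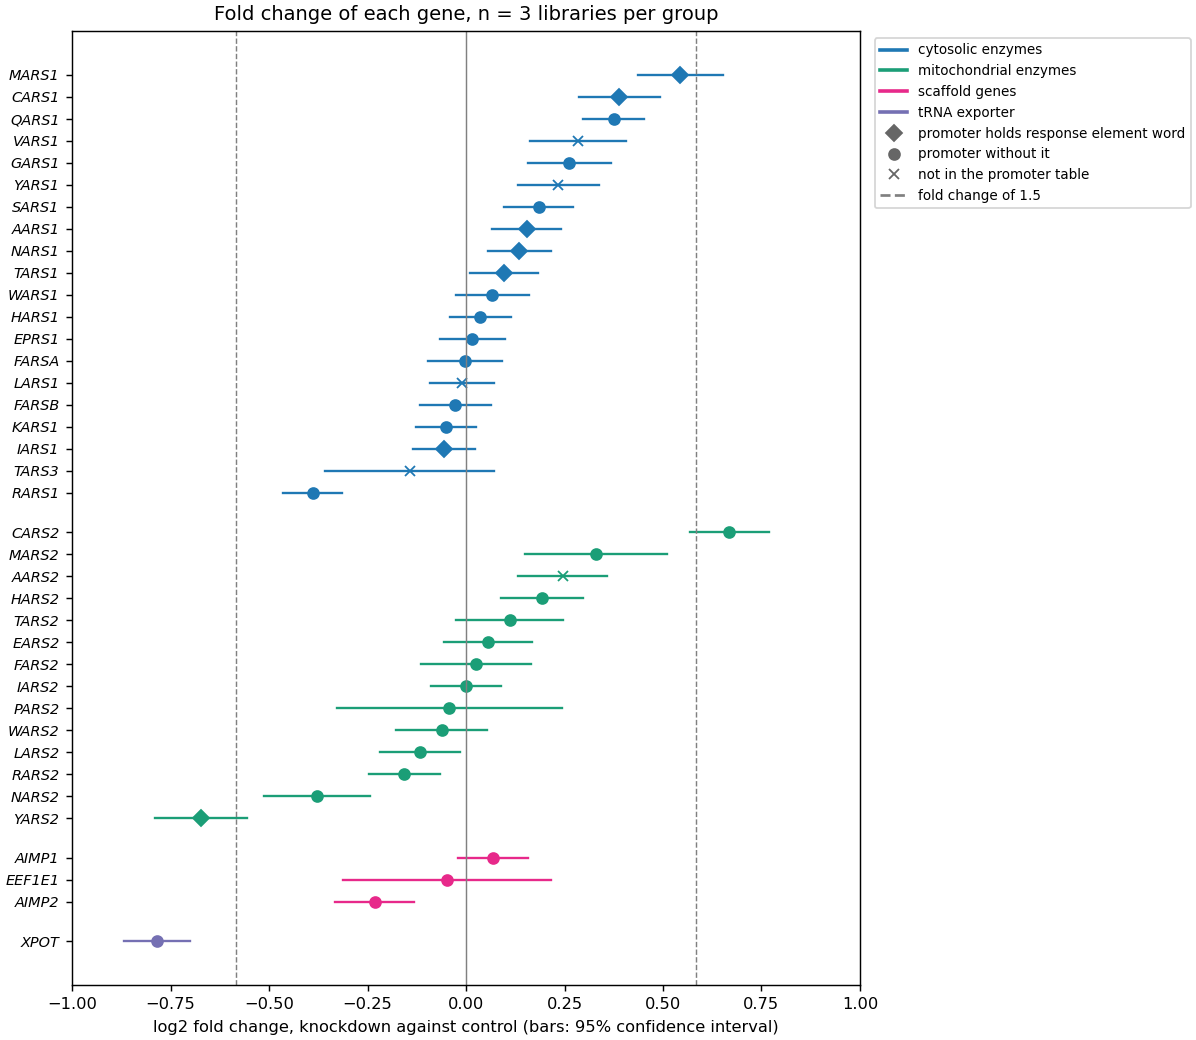
Log2 fold change of each gene with a 95% confidence interval computed from the edgeR test statistic, with 3 libraries per group. Diamonds mark genes whose promoter holds TGATGNAA on either strand, circles those without it and crosses those not in the promoter table, and dashed lines mark a fold change of 1.5. MARS1 at 0.54 and IARS1 at -0.056 both carry the word. CARS2 at 0.67 does not in the promoter entry read, which lies downstream of its GENCODE v44 start.

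Among the cytosolic enzymes, 9 of 20 were higher, 1 was lower and 10 did not pass an adjusted p of 0.05, and none passed both cutoffs. The shares over all genes tested were 23.3% higher, 25.0% lower and 11.7% past both cutoffs. The median log2 fold change was 0.082, and single values ran from -0.39 to 0.54, with 13 positive and 7 negative. The methionyl-tRNA synthetase gene MARS1, whose enzyme charges initiator as well as elongator tRNA, had 128, 121 and 122 CPM in control and 187, 188 and 165 CPM in knockdown libraries. The groups were well apart, and the log2 fold change of 0.54 (SE 0.050, edgeR adjusted p = 1.5e-06) was just short of the fold change cutoff. Without knockdown replicate 3 it was 0.60 and passed both cutoffs, as it did at 0.61 with scaling by library size alone.

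CARS1, the cysteinyl enzyme, had 82.5, 76.3 and 81.2 CPM in control and 105, 110 and 98.8 CPM in knockdown libraries. Its log2 fold change was 0.39 (SE 0.047, edgeR adjusted p = 1.8e-05), and the lowest knockdown library was above the highest control library. QARS1, the glutaminyl enzyme and the only one of its amino acid, had 124, 119 and 119 CPM in control and 157, 156 and 157 CPM in knockdown libraries. Its knockdown libraries were nearly equal, and the log2 fold change was 0.37 (SE 0.036, edgeR adjusted p = 2.1e-06). GARS1, which makes the glycyl enzyme of both compartments, had 259, 275 and 252 CPM in control and 325, 326 and 291 CPM in knockdown libraries, with a log2 fold change of 0.26 (SE 0.049, edgeR adjusted p = 0.00063).

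The other raised cytosolic genes changed less. YARS1 (tyrosyl) had 163, 164 and 156 CPM in control and 197, 197 and 175 CPM in knockdown libraries, a log2 fold change of 0.23. NARS1 had 324, 333 and 331 CPM in control and 365, 372 and 349 CPM in knockdown libraries, a log2 fold change of 0.14. VARS1 (valyl) rose by 0.28 on the log2 scale, SARS1 (seryl) by 0.18 and AARS1 (alanyl) by 0.15. In these 5 the edgeR adjusted p lay between 0.0010 and 0.0079, and the groups did not overlap. Knockdown replicate 3 was the lowest of the knockdown libraries in 8 of the 9 raised genes, QARS1 being the other, and in 15 of all 20 cytosolic enzymes. Against the control mean, the median log2 value of the 9 raised genes was 0.31 in knockdown replicates 1 and 2 and 0.15 in replicate 3. The summed level of the 20 enzymes was 3806 ± 31.3 CPM (SD, n = 3) in control and 4063 ± 147 CPM in knockdown cells, with 4130, 4165 and 3894 CPM in the knockdown libraries.

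RARS1, the arginyl enzyme, was the only cytosolic synthetase gene that fell. It had 188, 182 and 184 CPM in control and 140, 142 and 141 CPM in knockdown libraries. The libraries within each group were close together, and the log2 fold change was -0.39 (SE 0.035, edgeR adjusted p = 1.2e-06).

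The other cytosolic enzymes did not pass. The 95% confidence intervals of the log2 fold change were -0.13 to 0.023 for IARS1, -0.092 to 0.070 for LARS1 (leucyl), -0.067 to 0.099 for EPRS1, whose protein joins the glutamyl and prolyl enzymes, and -0.041 to 0.11 for HARS1 (histidyl). FARSA and FARSB, the subunits of the phenylalanyl enzyme, had intervals of -0.096 to 0.091 and -0.12 to 0.062. WARS1 (tryptophanyl) had one of -0.025 to 0.16. TARS1 (threonyl) had a log2 fold change of 0.096 with an edgeR adjusted p of 0.061, which fell to 0.0083 without control replicate 2. IARS1, the gene with the most counts of them, had 502, 524 and 510 CPM in control and 498, 504 and 476 CPM in knockdown libraries, with overlap. TARS3 had 5.65, 6.54 and 6.40 CPM in control and 5.37, 5.55 and 5.92 CPM in knockdown libraries, and a wider interval, -0.36 to 0.072. KARS1 had 224, 229 and 230 CPM in control and 222, 223 and 214 CPM in knockdown libraries. The groups did not overlap, yet the log2 fold change of -0.051 did not pass (edgeR adjusted p = 0.26).

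Grouped by structure, both classes of the enzymes held raised genes. Of 9 class I cytosolic genes 5 were higher and 1 lower, with a median log2 fold change of 0.23, and of 10 class II genes 4 were higher, with a median of 0.066. Of the 7 genes whose enzymes belong to the multisynthetase complex, MARS1 and QARS1 were higher, RARS1 was lower and EPRS1, IARS1, KARS1 and LARS1 did not pass, with a median of -0.011. Beside these counts, 23.3% of all genes tested were higher and 25.0% lower.

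The scaffold genes did not move together. AIMP2, which holds the sub-complexes together, had 39.8, 39.3 and 36.7 CPM in control and 33.2, 32.6 and 32.8 CPM in knockdown libraries. All knockdown libraries were below all control libraries, and the log2 fold change was -0.23 (SE 0.047, edgeR adjusted p = 0.0011). AIMP1 had 66.0, 66.0 and 70.9 CPM in control and 69.9, 71.6 and 71.2 CPM in knockdown libraries, with overlap (edgeR adjusted p = 0.19). EEF1E1, also known as AIMP3, had 9.36, 9.75 and 6.66 CPM in control and 8.72, 7.98 and 8.17 CPM in knockdown libraries. Its control libraries spread more than the groups differed (log2 fold change -0.048, edgeR adjusted p = 0.77), and in GENCODE v44 18.8% of its exon bases overlap a readthrough gene on the same strand, where reads cannot be assigned.

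Mitochondrial enzymes moved in both directions, at shares near those of all genes tested. Of 14 tested, 4 were higher, beside 23.3% of all genes, 3 were lower, beside 25.0%, and 7 did not pass. The median log2 fold change was 0.013, with a range from -0.67 to 0.67. CARS2 (ENSG00000134905.17, chr13:110641412-110713603, minus strand, GRCh38), whose enzyme charges mitochondrial tRNA with cysteine, had 49.1, 44.3 and 49.0 CPM in control and 77.1, 75.6 and 73.7 CPM in knockdown libraries. The groups were far apart relative to their spread, with a level 1.59 times that of control (log2 fold change 0.67, SE 0.047, edgeR adjusted p = 1.1e-07). YARS2 (ENSG00000139131.13, chr12:32727490-32755897, minus strand) had 24.9, 25.7 and 26.4 CPM in control and 16.2, 16.1 and 15.8 CPM in knockdown libraries. All knockdown libraries were at a similar low level, 62.6% of control (log2 fold change -0.67, SE 0.054, edgeR adjusted p = 4.4e-07).

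NARS2, the mitochondrial asparaginyl enzyme, also fell, from 29.4, 32.8 and 34.2 CPM in control to 24.5, 25.9 and 23.7 CPM in knockdown libraries. The groups did not overlap, and the log2 fold change was -0.38 (SE 0.062, edgeR adjusted p = 0.00024). RARS2, the arginyl enzyme, fell by 0.16 on the log2 scale (edgeR adjusted p = 0.0069). MARS2 had 8.72, 8.56 and 8.39 CPM in control and 11.2, 9.72 and 11.4 CPM in knockdown libraries, a low-level gene that was nonetheless higher in every knockdown library (log2 fold change 0.33, SE 0.083, edgeR adjusted p = 0.0052). AARS2 and HARS2 (alanyl and histidyl) were higher by 0.25 and 0.19 on the log2 scale, with edgeR adjusted p of 0.0018 and 0.0047.

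The remaining mitochondrial enzymes did not pass. LARS2 was lower in every knockdown library, 39.9, 40.1 and 36.6 CPM against 42.4, 41.6 and 42.7 CPM, with a log2 fold change of -0.12 (edgeR adjusted p = 0.055). IARS2, the most abundant of them, had 129, 139 and 142 CPM in control and 136, 139 and 136 CPM in knockdown libraries, with an interval of the log2 fold change from -0.089 to 0.089. The intervals of TARS2, EARS2, FARS2 and WARS2 all included 0. PARS2, at 2.95, 3.27 and 3.33 CPM in control and 3.33, 2.67 and 3.26 CPM in knockdown libraries, had the widest interval of all members, -0.33 to 0.24. The summed level of the mitochondrial enzymes was 529 ± 12.5 CPM (SD, n = 3) in control and 546 ± 10.8 CPM in knockdown cells.

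SARS2 and VARS2, the mitochondrial seryl and valyl enzymes, were listed at 0 in all 6 libraries, both in the strand column used and without regard to strand. In GENCODE v44, 48.2% of the exon bases of SARS2 and 63.0% of those of VARS2 overlap another gene on the same strand, and the counting dropped reads that fit more than 1 gene. The counts were made with GENCODE v36, the overlaps are partial, and whether they account for the 0 counts was not tested. No level can be given for either gene.

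XPOT (ENSG00000184575.12, chr12:64404392-64451125, plus strand) encodes exportin-t, which binds mature tRNA in the nucleus and carries it to the cytoplasm. It had 255, 273 and 259 CPM in control and 149, 156 and 152 CPM in knockdown libraries. The knockdown libraries were at 58.1% of the control level, the lowest share of the 38 genes, and the log2 fold change was -0.78 (SE 0.039, edgeR adjusted p = 6.2e-09). It was the only gene of the set that also passed a test against a fold change of 1.5 itself.

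An siRNA can lower transcripts whose 3′ untranslated region (UTR) pairs with its seed, so these regions were read for the seed of the guide strand of LINC01133a. The guide is shown with bases 2 to 8 in capitals, and the matched word is AGAATGG.
LINC01133a guide: uCCAUUCUcagguaacuuc
The word was found in the canonical 3′ UTR of 7 of the 38 genes tested, beside 17.1% of 12537 tested genes with such a region. It was in none of the 20 cytosolic enzymes, whose median 3′ UTR length was 323 bases, and in 4 of 14 mitochondrial enzymes, whose median was 728 bases. The median over all tested genes with such a region was 1365 bases, and that of XPOT had 2994 bases. A longer region has more places for a match. The sites are shown with the word in capitals, lowered genes first, since XPOT and YARS2 are among them.
XPOT: tacaaaagAGAATGGttttaggc
YARS2: agaaaaacAGAATGGactaggac
AIMP2: agattttaAGAATGGtgctcttt
AIMP1: tcaacaaaAGAATGGcatcaata
PARS2: gtaagatgAGAATGGctgatggc
EARS2: agacattaAGAATGGttaaaagg
AARS2: ggaaatagAGAATGGggatcagg

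Only the YARS2 site continued with A to the match AGAATGGA, which 5.77% of tested genes held. Of the 7 genes with the word, XPOT, YARS2 and AIMP2 were lower, AIMP1, PARS2 and EARS2 did not pass and AARS2 was higher. RARS1, NARS2 and RARS2, which were also lower, had no match. The seed word of the other siRNA strand was in XPOT, YARS2, PARS2, IARS1, NARS1 and TARS3. Of these XPOT and YARS2 were lower, NARS1 was higher and the others did not pass. Its share over all genes was not counted. Over all tested genes the median log2 fold change was -0.095 with the guide's word and 0.0014 without it, and over the members -0.042 and 0.036. These medians were not matched for UTR length. Whether the siRNA acted at these sites was not tested.

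Cytosolic and mitochondrial enzymes for the same amino acid were set against each other within each library, since the ratio of their counts does not depend on the scaling between libraries. Of 17 listed pairs, 15 could be compared, the seryl and valyl pairs being left out. The ratio did not overlap between groups in 8 pairs, 4 in each direction. For single genes, the groups did not overlap in 57.3% of all genes tested. The share for ratios of other gene pairs was not counted, so the 8 cannot be called particular to these pairs. In an exact two-sided permutation test over 20 regroupings of 3 against 3 libraries, the smallest p possible is 0.10, which these 8 reached, and the Benjamini-Hochberg value over the 15 pairs was 0.1875. This test therefore cannot bring a single pair under 0.05 with 3 libraries per group.

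The tyrosyl pair differed most. The log2 ratio of YARS1 to YARS2 was 2.71, 2.68 and 2.57 in control and 3.60, 3.61 and 3.46 in knockdown libraries. Both genes contributed, YARS1 upward and YARS2 downward, and the ratio of counts went from 6.29 to 11.8, a difference of 0.91 on the log2 scale. The asparaginyl pair followed. The log2 ratio of NARS1 to NARS2 was 3.46, 3.35 and 3.27 in control and 3.90, 3.84 and 3.88 in knockdown libraries, a difference of 0.51 with NARS2 lowered and NARS1 slightly raised. These were the only pairs that differed by more than 0.5.

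In the cysteinyl pair both genes were raised, CARS2 more than CARS1. Its log2 ratio was 0.75, 0.78 and 0.73 in control and 0.45, 0.54 and 0.42 in knockdown libraries, a difference of -0.28, and it remained the pair with the smallest excess of the cytosolic gene. In the arginyl pair both genes were lowered, RARS1 more than RARS2, and the log2 ratio differed by -0.23. The histidyl genes HARS1 and HARS2 lie head to head on chromosome 5 with starts that overlap by 107 bases, and their log2 ratio differed by -0.16 with only HARS2 past an adjusted p of 0.05. The leucyl and tryptophanyl ratios differed by 0.11 and 0.13 and the alanyl ratio by -0.096. In the methionyl pair both genes were raised, and the ratio overlapped between groups.

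**Figure D4:**
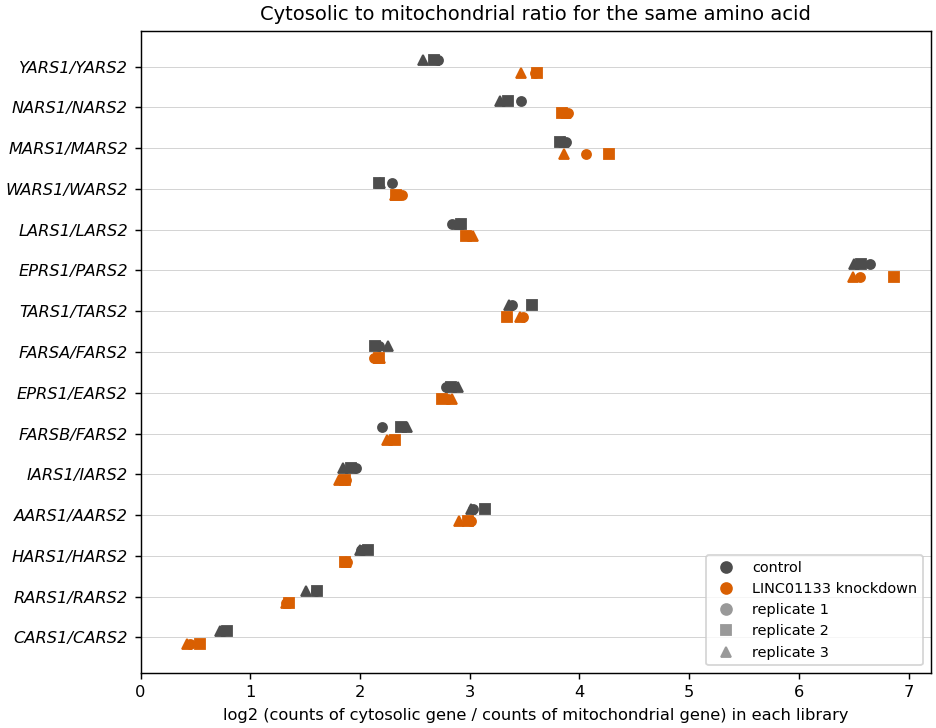
Log2 of the counts of the cytosolic gene over those of the mitochondrial gene for the same amino acid in each library, for the 15 pairs compared. Grey symbols are control and orange symbols knockdown libraries, and the shape gives the replicate. The YARS1 to YARS2 ratio lies at 2.57 to 2.71 in control and 3.46 to 3.61 in knockdown libraries, and the CARS1 to CARS2 ratio is lower in every knockdown library.

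Genes that work beside the synthetases were read from lists. Mitochondria lack a glutaminyl enzyme and make that charged tRNA through a glutamyl intermediate and the GatCAB amidotransferase. GATB, a subunit of the amidotransferase, fell by 0.34 on the log2 scale (edgeR adjusted p = 0.00014), while GATC, another subunit, rose by 0.21 (edgeR adjusted p = 0.0013). MTFMT, which formylates the initiator methionyl-tRNA of mitochondria, rose by 0.25 (edgeR adjusted p = 0.020).

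Of 19 genes for tRNA processing and export, 2 were higher, beside 23.3% of all genes tested, and 7 lower, beside 25.0%. RPP25, a subunit of RNase P, which trims the 5′ end of tRNA precursors, had 25.8, 23.3 and 24.3 CPM in control and 11.9, 14.5 and 15.1 CPM in knockdown libraries. It alone of this list passed both cutoffs (log2 fold change -0.83, edgeR adjusted p = 2.7e-06). TSEN15, a subunit of the tRNA splicing endonuclease, fell by 0.42, SSB, the La protein that binds new tRNA precursors, by 0.40, and XPO5, another nuclear exporter, by 0.33. TRNT1, which adds the CCA end, rose by 0.34 (edgeR adjusted p = 0.00034).

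Other lists around translation held 1 gene past both cutoffs, beside 11.7% of all genes tested. At an adjusted p under 0.05, 23.3% of all genes tested were higher and 25.0% lower. Of 5 cytosolic elongation factors tested, EEF1A2 fell by 0.21 on the log2 scale and the others did not pass. Of 10 mitochondrial translation factors, MTRF1 and MTIF3 were higher and MTRF1L was lower, with log2 fold changes from -0.17 to 0.27. Of 10 genes for mitochondrial tRNA modification, 1 was higher (PUS1) and 3 lower, MTO1 by 0.25. Of 4 genes for selenocysteine, 2 were higher, PSTK by 0.56 on the log2 scale, and SEPHS1 fell by 0.14. Of 3 proofreading genes, AARSD1 passed both cutoffs at a low level, 0.97 ± 0.13 CPM in control and 1.58 ± 0.38 CPM in knockdown cells (SD, n = 3, log2 fold change 0.68, edgeR adjusted p = 0.019).

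Of 20 genes of the response to amino acid starvation, 14 were higher, beside 23.3% of all genes tested, and 3 lower, beside 25.0%. The median log2 fold change was 0.30, beside 0.082 for the cytosolic synthetases. Past both cutoffs and higher were CHAC1, ASNS, SESN2, SLC7A5 and PSAT1, of which CHAC1 and ASNS were below 1 CPM in control. CEBPB, a partner of ATF4 on the response element, was lower past both cutoffs (log2 fold change -0.73). Over all genes tested, 5.30% were higher and 6.43% lower past both cutoffs. The other lower genes of the list were DDIT4 and VLDLR, with log2 fold changes of -0.55 and -0.17 (edgeR adjusted p = 0.00012 and 0.0036). ATF4 itself was higher by 0.16 (edgeR adjusted p = 0.014), with overlap between the groups, and EIF2AK4, which encodes GCN2, did not pass (log2 fold change -0.053). The largest value among the cytosolic synthetases, 0.54 for MARS1, was near those of TRIB3 (0.51), SHMT2 (0.52) and CEBPG (0.58) in this list. Values in the list ran from -0.73 to 2.25, and a shared cause with the synthetase genes was not tested.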

How the data were processed

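RNA-sequencing counts of 12Z cells were analysed (3 control and 3 LINC01133 knockdown libraries, grouped by their labels). The authors enriched poly-A RNA, aligned paired reads with STAR 2.7.6a to GRCh38.p13 with GENCODE v36, kept uniquely mapped reads, and deposited counts per gene from STAR without normalization. Converting the read files used SAMtools 1.10. Of the strand columns, the one holding about 94% of stranded counts was used; the column that entered the study's own analysis is not given in the sources used here. The members and all gene lists were chosen with earlier results of these data known.

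Counts were filtered with filterByExpr (minimum count 10), scaled by TMM and tested with edgeR 4.0.16 (quasi-likelihood test, R 4.3.3), which was also tested on simulated data. DESeq2 1.42.0 served as an alternative. RPKM used the canonical transcript length of GENCODE v44, as did UTRs and overlaps. Genes named with values in each library were those past both cutoffs, XPOT, GARS1, KARS1, the scaffold genes, genes of pairs whose ratio differed by over 0.5, and those of highest or lowest level per length. Of other lists, genes past both cutoffs and up to 3 with the lowest adjusted p were named. MARS1, CARS1, QARS1, RARS1, MARS2, LARS2, IARS2 and further genes of the lists were added after their values were seen, as were the promoter and seed words. Precision is given by the SD over 3 libraries per group, or by the standard error (SE) or 95% interval of the log2 fold change. The SE and interval were computed from the edgeR test statistic, whose variance estimates draw on all genes tested. They are not a spread over the libraries of 1 gene alone.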

Additional observations from a re-analysis of the deposited data

How the results depend on the processing

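XPOT, YARS2 and CARS2 passed both cutoffs under every alternative that keeps these cutoffs: DESeq2, scaling by its size factors or by library size alone, other filters on low counts, unstranded counts and each library left out. A glmTreat test against a fold change of 1.5 called 578 genes in all, 1 member (XPOT) and 0 mitochondrial enzymes. The number of cytosolic enzymes past both cutoffs was 1 (MARS1) with library size alone and between 0 and 1 with each library left out, being 1 without knockdown replicate 3. With library size alone, 55.9% of calls were higher, beside 45.2% with TMM, and the median log2 fold change was 0.065 in place of 0.0032 over all genes, 0.14 in place of 0.082 over cytosolic and 0.075 in place of 0.013 over mitochondrial enzymes. With each library left out the cytosolic median was between 0.061 and 0.12 and the mitochondrial one between 0.011 and 0.026, the latter highest without knockdown replicate 2. The replicate numbers did not pair the libraries, with correlations of -0.015, 0.0049 and 0.057 between same-numbered libraries, and the replicate block gave 1747 genes past both cutoffs and the same 3 members. At an adjusted p under 0.05, TARS1 was gained with the block, with at least 10 counts in every library, without control replicate 2 and without knockdown replicate 3, LARS2 without control replicate 2 and WARS1 without knockdown replicate 3. With library size alone HARS1, TARS1, WARS1, TARS2 and AIMP1 were gained and RARS2 was lost (adjusted p = 0.088).

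Signs turned only for log2 values near 0. With library size alone they were 0.059 for FARSA, 0.035 for FARSB, 0.0072 for IARS1, 0.012 for KARS1, 0.051 for LARS1, 0.020 for PARS2 and 0.014 for EEF1E1. FARSA was 0.00083 with at least 10 counts in every library, and IARS2 was -0.0011 with DESeq2 and with its size factors in edgeR. With each library left out, values ran from -0.00043 to 0.049 for EPRS1, -0.041 to 0.029 for FARSA, -0.032 to 0.016 for LARS1, -0.0019 to 0.066 for FARS2, -0.040 to 0.031 for IARS2, -0.10 to 0.055 for PARS2 and -0.20 to 0.043 for EEF1E1. Log2 ratios ran from -0.054 to 0.053 for TARS1 to TARS2, -0.055 to 0.0063 for FARSA to FARS2 and -0.047 to 0.14 for EPRS1 to PARS2. The cause of these changes was not tested. The intervals of PARS2, EEF1E1 and TARS3 were the widest of the set.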
